A study of Homo sapiens with 6 samples.

Results

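Metallothioneins are small cysteine-rich proteins that hold zinc and copper in thiolate clusters, and SLC39A10 (also called ZIP10) is a zinc importer of the plasma membrane. The genes MT2A, MT1E, MT1X and SLC39A10 were followed in the Huh7 cell line, an established human hepatocellular carcinoma line. They are 4 of the 5187 genes listed in the count files, taken by symbol from their Ensembl identifiers. All 4 passed the filter on low counts, which left 4981 genes. They were chosen because their counts differed between GABA-treated and control cells in these same libraries, so their levels and differences are given as a description, with no test.

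RNA was sequenced from 3 control samples and 3 samples treated for 24 h with gamma-aminobutyric acid (GABA). The control is the same line without GABA, and both groups were kept in serum-supplemented DMEM medium with antibiotics. The dose of GABA is not given in the sources used here, and the libraries are named as biological replicates with no further word on how cultures were separated, so the spread between them may be partly technical. Both groups are 1 cell line.

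In hepatocytes and many other cells, metallothionein genes are switched on by the zinc-sensing transcription factor MTF1, which binds short metal response elements in their promoters when free zinc is high. The same factor is known to repress SLC39A10, so that the importer is made when zinc is scarce. Zinc reaches the cytosol through ZIP proteins (SLC39 genes) and leaves it through ZnT proteins (SLC30 genes), while metallothioneins buffer what is inside. Glucocorticoids, inflammatory cytokines and oxidative stress can also raise metallothionein transcripts.

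The 3 metallothionein genes lie in a cluster on the long arm of chromosome 16 that spans 119 kb, from 56565049 to 56684196 (GRCh38, GENCODE release 29), with 16 metallothionein loci of which 11 are protein coding. Only MT2A (ENSG00000125148, chr16:56608199-56609497), MT1E (ENSG00000169715, chr16:56625475-56627112) and MT1X (ENSG00000187193, chr16:56682424-56684196), all on the plus strand, are listed in the files used here, and the other loci were not analysed. SLC39A10 (ENSG00000196950, chr2:195575977-195737702, plus strand) has 10 exons in its main transcript. None of the genes next to these 4 on the chromosome is listed.

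The coding sequences of the 3 metallothioneins are shown because their likeness bears on how reads could be divided among them. Each has 186 bases and encodes 61 amino acids, with 20 cysteine codons. Capitals in MT1E and MT1X mark bases that differ from MT2A (main transcripts of GENCODE release 29, 5′ to 3′).
MT2A: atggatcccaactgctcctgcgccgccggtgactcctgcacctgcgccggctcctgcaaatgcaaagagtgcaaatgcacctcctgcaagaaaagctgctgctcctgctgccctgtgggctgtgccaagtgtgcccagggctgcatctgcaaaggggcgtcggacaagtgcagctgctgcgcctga
MT1E: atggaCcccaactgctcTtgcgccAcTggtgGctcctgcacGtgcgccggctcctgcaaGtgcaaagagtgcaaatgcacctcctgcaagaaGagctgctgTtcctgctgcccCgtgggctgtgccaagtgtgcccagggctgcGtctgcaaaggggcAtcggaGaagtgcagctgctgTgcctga
MT1X: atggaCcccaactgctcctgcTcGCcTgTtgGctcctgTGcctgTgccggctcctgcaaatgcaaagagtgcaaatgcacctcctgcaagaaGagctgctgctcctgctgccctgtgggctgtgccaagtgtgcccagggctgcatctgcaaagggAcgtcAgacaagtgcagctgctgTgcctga

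MT1E and MT1X each differ from MT2A at 14 of the 186 coding bases (92.5% identity), and MT1E and MT1X are 90.9% identical to each other. Of all windows of 50 bases in the main transcript, 4.88% in MT2A and 5.34% in MT1E also occur in a transcript of another gene, against 45.1% in MT1X and 0 in SLC39A10. For MT1X, 18.1% of exon bases also belong to AC026461.1, a noncoding transcript on the same strand that is not listed. With windows of 100 bases the share was 19.1% in MT1X, all of it in AC026461.1, and 0 in the other members. The read length and the handling of reads with several matches are not given in the sources used here, so MT1X counts are the least certain of the 4.

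Promoter windows are shown because these genes are textbook targets of a zinc-sensing factor. The RefSeq promoter table (GRCh38.p14), whose windows run from 250 bases before to 50 after a transcript start, matched 3 of the 4 members, with 2 starts for SLC39A10; MT1E was not matched. Capitals mark the core of the metal response element, searched on both strands as TGCACNC or TGCGCNC.
MT2A, chr16:56608334-56608633, plus strand: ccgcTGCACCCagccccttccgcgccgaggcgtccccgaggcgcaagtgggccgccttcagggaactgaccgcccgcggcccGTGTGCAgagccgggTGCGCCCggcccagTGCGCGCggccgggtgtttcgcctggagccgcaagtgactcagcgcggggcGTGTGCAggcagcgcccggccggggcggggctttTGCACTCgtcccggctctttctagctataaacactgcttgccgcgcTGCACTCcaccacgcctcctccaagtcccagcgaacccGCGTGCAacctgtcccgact
MT1X, chr16:56682220-56682519, plus strand: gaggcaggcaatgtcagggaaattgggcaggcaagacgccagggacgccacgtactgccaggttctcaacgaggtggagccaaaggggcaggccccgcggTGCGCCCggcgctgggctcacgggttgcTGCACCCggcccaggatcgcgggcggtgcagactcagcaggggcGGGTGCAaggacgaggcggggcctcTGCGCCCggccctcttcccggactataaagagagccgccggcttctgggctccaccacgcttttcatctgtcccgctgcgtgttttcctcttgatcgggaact
SLC39A10, the first start, chr2:195656708-195657007, plus strand: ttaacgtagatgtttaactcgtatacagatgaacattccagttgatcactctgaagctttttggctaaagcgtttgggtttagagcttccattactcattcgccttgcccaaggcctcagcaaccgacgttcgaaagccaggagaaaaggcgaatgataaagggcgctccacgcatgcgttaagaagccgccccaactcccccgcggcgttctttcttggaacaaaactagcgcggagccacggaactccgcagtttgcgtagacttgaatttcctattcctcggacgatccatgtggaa
SLC39A10, the second start, chr2:195656976-195657275, plus strand: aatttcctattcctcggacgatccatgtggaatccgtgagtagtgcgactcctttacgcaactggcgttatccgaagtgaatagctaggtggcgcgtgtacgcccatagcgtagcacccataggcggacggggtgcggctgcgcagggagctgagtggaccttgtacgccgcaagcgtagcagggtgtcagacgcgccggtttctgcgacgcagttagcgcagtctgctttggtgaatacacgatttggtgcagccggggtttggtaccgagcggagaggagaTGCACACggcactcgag

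MT2A held 8 metal response element cores in its window, as many as 7 of all 35116 promoter windows hold or exceed (0.0199%). MT1X held 4, and 0.601% of windows have at least 4. SLC39A10 had 0 at the first start and 1 at the second, a number that 29.6% of windows reach. Both SLC39A10 windows lie inside the gene as annotated by GENCODE, and no window at its first annotated base (chr2:195575977) was searched. Among the other metallothioneins in the table, MT1H held 8 cores, and MT1B and MT4 held 3 each. A TATA box (TATAAA) lay at -29 in MT2A and at -30 in MT1X, counted from the transcript start, and not in the SLC39A10 windows; 11.5% of windows have one on either strand. The core of the antioxidant response element (TGACNNNGC), which NRF2 binds, occurred at -104 in MT2A and at -243 on the other strand in MT1X, against 13.3% of windows with at least 1. GC boxes (GGGCGG) numbered 2 in MT2A, 2 in MT1X, 1 at the first SLC39A10 start and 0 at the second, and 45.0% of windows have at least 1. In MT1X, 1 GC box shared 2 bases with a metal response element core, the single overlap among these motifs in the 4 windows. A match of letters describes the window and is not evidence of binding.

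**Figure D1:**
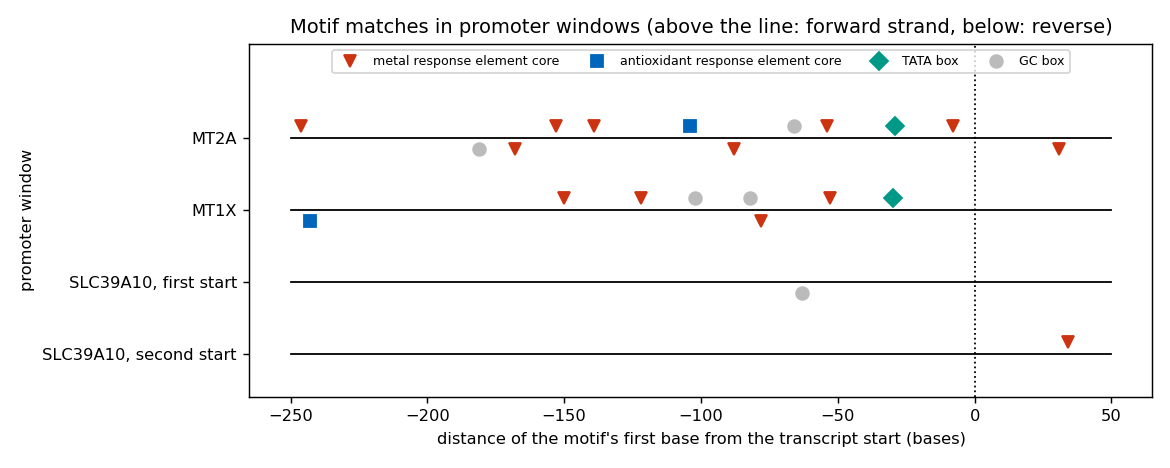
Motif matches in the 4 promoter windows. The x axis is the distance of each motif's first base from the transcript start in bases, rows are promoter windows, and symbols above and below a line are on the forward and reverse strand. MT2A carries 8 metal response element cores and MT1X carries 4, while the SLC39A10 windows carry 0 and 1.

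The files do not hold a full transcriptome. File position followed the p-value of the GABA comparison (Spearman correlation 0.93 across the 4981 tested genes), and the smallest absolute log2 fold change was 0.12, so nearly every listed gene was called: 98.7% of tested genes passed an adjusted p of 0.05. Adjusted p-values below were computed over this list, which appears to have been drawn from the same contrast. They are given as a description and are not false discovery rates. TMM scaling between libraries assumes that most genes do not differ, and here it could use only this list. The median log2 fold change of the tested genes was -0.18. The zero point of the fold changes is thus not fixed by these data, which matters most for small changes. All alternative scalings used the same list. Counts on the listed genes summed to between 7702666 and 8392945 per library, which is not the sequencing depth. Control replicate 3 stood apart from the other controls, with 9.11% of its listed counts from mitochondrially encoded genes against 6.66% to 7.74% in the other 5 libraries, and values are given below with and without it. None of the 20 hepatocyte markers, 11 immune markers or 7 endothelial markers looked for is listed, so the identity of the cells could not be checked. Of 9 fibroblast markers, 2 were tested, with PDGFRB lower and COL3A1 higher, and of 9 kidney and cervix line markers 3 were tested and were higher. Fewer cells expressing a gene and less RNA per cell cannot be told apart in these bulk samples.

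With GABA, the transcripts of all 3 listed metallothioneins were lower and that of the zinc importer SLC39A10 was higher. MT1X stood at 44.9% of its control mean, MT1E at 61.0% and MT2A at 77.0%, and SLC39A10 at 2.13 times its control mean. By group means the least abundant metallothionein thus differed most in proportion, and the most abundant differed least. With the GABA mean set against control replicate 3 alone, the log2 difference was -1.02 for MT1E and -0.77 for MT1X. The order of MT1X and MT1E thus rests on the other controls. The groups did not overlap in any of the 4 genes, which holds for 92.5% of all tested genes (45.8% higher and 46.7% lower with GABA), and since the members were chosen by this contrast nothing is read from that count.

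MT2A encodes the metallothionein that is most abundant in many human cells. Its level was 2754, 2650 and 3563 CPM (counts scaled by TMM and relative to the listed genes only) in control replicates 1, 2 and 3. In GABA replicates 1, 2 and 3 it was 2325, 2321 and 2254. Control replicate 3 was far above the other controls, the GABA libraries were close to each other, and the highest GABA library lay 324 CPM below the lowest control. The means were 2989 ± 500 in control and 2300 ± 40.2 with GABA (SD, n = 3), a log2 fold change of -0.38 ± 0.09 (SE of the fit). Without control replicate 3 the log2 fold change was -0.23 ± 0.05, so this single library moved the value by more than 1.5 times.

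MT1E is a metallothionein of the MT1 group, which in humans has several near-identical members. It was measured at 635, 606 and 868 CPM in control replicates 1, 2 and 3 and at 432, 457 and 397 CPM in GABA replicates 1, 2 and 3. As for MT2A, control replicate 3 was the highest library, and every GABA library lay below every control. The mean went from 703 ± 144 to 429 ± 30.5 CPM (SD, n = 3), with a log2 fold change of -0.71 ± 0.12 (SE). It was -0.54 ± 0.05 without control replicate 3.

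MT1X, another gene of the MT1 group, had few counts, from 176 to 284 in control and from 95 to 112 in GABA libraries. Its levels were 34.5, 31.2 and 22.4 CPM in control replicates 1, 2 and 3, and 12.2, 14.1 and 13.2 CPM in GABA replicates 1, 2 and 3. Here control replicate 3 was the lowest control and the nearest to the GABA libraries, the reverse of MT2A and MT1E. The mean went from 29.4 ± 6.25 to 13.2 ± 0.94 CPM (SD, n = 3), with a log2 fold change of -1.16 ± 0.17 (SE), and of -1.32 ± 0.14 without control replicate 3.

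SLC39A10 belongs to the histidine-rich LIV-1 branch of the ZIP importers, and 89 of its 831 codons for amino acids encode histidine. It was at 58.3, 55.8 and 71.5 CPM in control replicates 1, 2 and 3, and at 131, 129 and 135 CPM in GABA replicates 1, 2 and 3. Control replicate 3 was again the highest control, and the lowest GABA library lay 57.1 CPM above it. The mean went from 61.9 ± 8.43 to 132 ± 3.25 CPM (SD, n = 3), a log2 fold change of 1.09 ± 0.10 (SE), and of 1.20 ± 0.08 without control replicate 3.

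**Figure D2:**
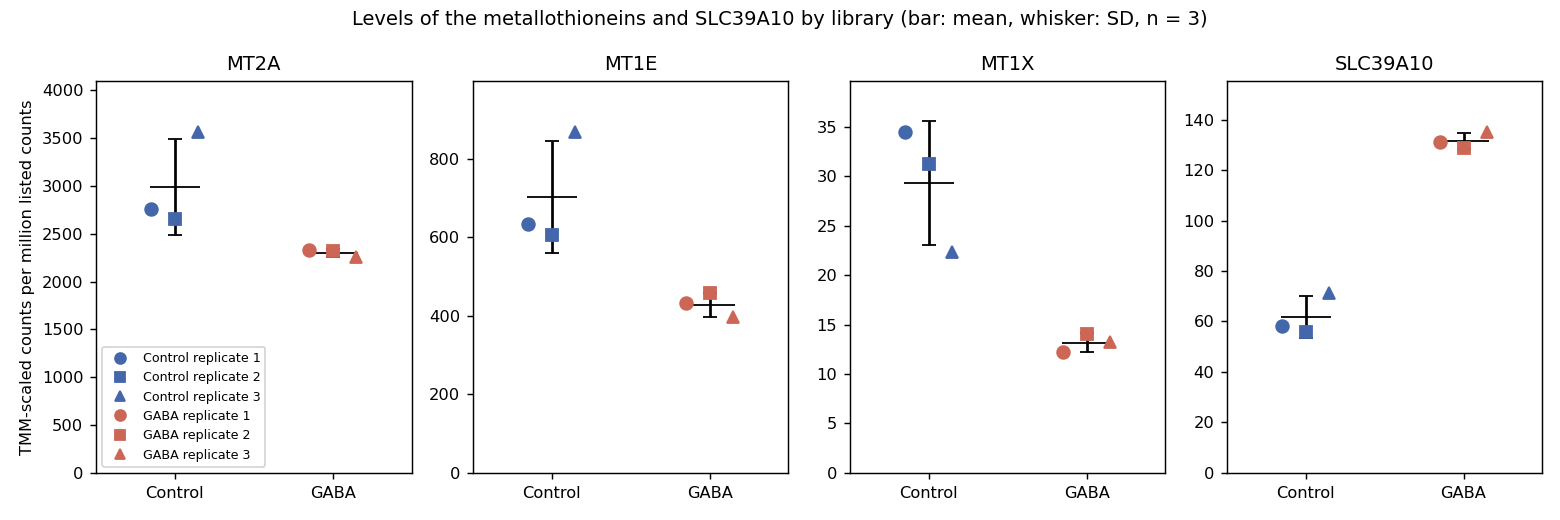
Levels of the 4 genes by library. Each panel is 1 gene, the y axis is CPM, TMM-scaled and relative to the listed genes, from 0, points are libraries, and bars and whiskers are the mean and SD of 3 libraries. Control replicate 3 is the highest control for MT2A (3563), MT1E (868) and SLC39A10 (71.5) and the lowest for MT1X (22.4).

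For comparison, the median absolute log2 fold change of all tested genes was 0.40, with quartiles of 0.28 and 0.63. MT2A lay just under that median, with 46.2% of tested genes showing a smaller absolute change. The share was 79.7% for MT1E, 92.7% for MT1X and 91.5% for SLC39A10.

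Levels of different genes were compared per kilobase of the main transcript. In control cells MT2A led with 3802 ± 636 CPM per kilobase, followed by MT1E with 999 ± 204, MT1X with 65.2 ± 13.9 and SLC39A10 with 11.4 ± 1.55 (SD, n = 3). With GABA the order was the same, at 2926 ± 51.1, 609 ± 43.3, 29.3 ± 2.09 and 24.2 ± 0.60 CPM per kilobase. Each neighbouring pair in this order was separated by more than the SDs of both genes. The order of the lowest pair depends on the length used. Per kilobase of all annotated exons, which for MT1X include a retained intron, SLC39A10 was below MT1X in control (8.94 ± 1.22 against 16.6 ± 3.53) and above it with GABA (19.0 ± 0.47 against 7.43 ± 0.53).

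Ratios of counts within a library do not depend on any scaling between libraries. For each 100 MT2A counts there were 23.1, 22.9 and 24.4 MT1E counts in control replicates 1, 2 and 3, and 18.6, 19.7 and 17.6 in GABA replicates 1, 2 and 3. MT1E was thus lower relative to MT2A in every GABA library. MT1X gave 1.25, 1.18 and 0.628 counts for each 100 of MT2A in the controls, and 0.525, 0.607 and 0.587 in the GABA libraries. For this ratio control replicate 3 lay just above the GABA libraries and far below the other controls. MT1X counts for each 100 of MT1E were 5.43, 5.15 and 2.58 in control replicates 1, 2 and 3. They were 2.82, 3.08 and 3.33 in GABA replicates 1, 2 and 3, so control replicate 3 lay below every GABA library. The ratio of SLC39A10 to MT2A was 2.01 to 2.12 counts for each 100 in controls and 5.54 to 5.99 with GABA.

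The 3 metallothioneins together took 0.342%, 0.330% and 0.436% of the listed counts in control replicates 1, 2 and 3. In GABA replicates 1, 2 and 3 they took 0.279%, 0.279% and 0.269%. MT2A made up 80.0% to 80.6% of this sum in controls and 83.1% to 84.6% with GABA. The summed share was lower in each GABA library than in each control, and MT2A took more of it.

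**Figure D3:**
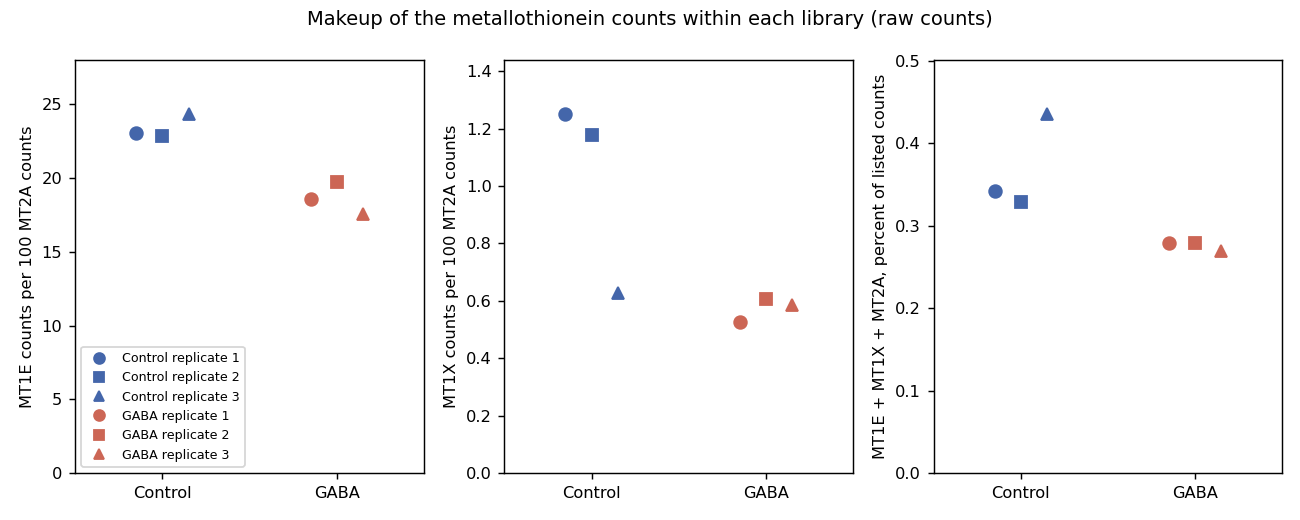
Makeup of the metallothionein counts. The y axes show MT1E and MT1X counts per 100 MT2A counts and the share of the 3 genes in all listed counts, and points are the 6 libraries. MT1E is at 22.9 or more in controls and at 19.7 or less with GABA, while the MT1X value of control replicate 3 (0.628) lies beside the GABA libraries.

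The members varied more between control than between GABA libraries. The coefficient of variation was 16.7%, 20.4%, 21.3% and 13.6% in controls for MT2A, MT1E, MT1X and SLC39A10, against 1.75%, 7.12%, 7.14% and 2.47% with GABA. Over the 3070 genes averaging 50 CPM or more the median was 7.93% in controls and 3.85% with GABA, so control libraries were more spread for listed genes in general. Counting error alone gives 0.649% for MT2A and 6.54% for MT1X in controls. With GABA it gives 9.74% for MT1X, which is more than the spread seen there.

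Most of the control spread came from replicate 3. That library stood at 132% of the mean of the other controls for MT2A, at 140% for MT1E and at 125% for SLC39A10, but at 68.2% for MT1X. On the log2 scale it deviated from the control mean by 0.27 for MT2A, 0.32 for MT1E, 0.22 for SLC39A10 and -0.36 for MT1X. The metallothioneins thus did not move together among the controls: MT2A and MT1E were high, with the importer, in the library where MT1X was low. Whether the higher mitochondrial share of control replicate 3 has a part in this was not tested.

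**Figure D4:**
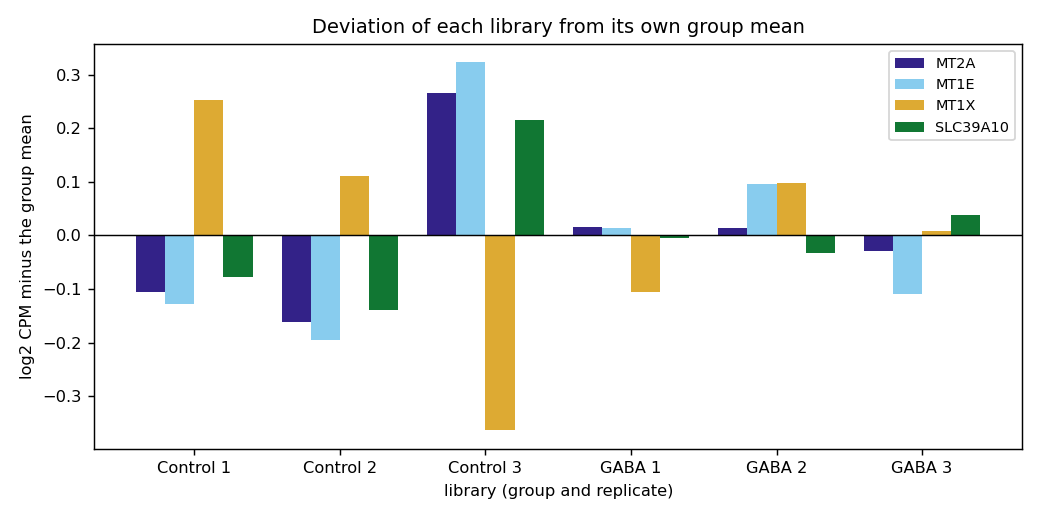
Deviation of each library from its group mean. The x axis lists the 6 libraries, the y axis is log2 CPM minus the mean of that library's group, and bars are the 4 genes. Control replicate 3 has the largest bars, upward for MT2A, MT1E and SLC39A10 and downward for MT1X (-0.36).

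The other listed zinc transporters moved in both directions. Of 14 ZIP genes 4 are listed, and besides SLC39A10, SLC39A3, a plasma membrane zinc importer, rose from 48.2 ± 5.00 to 67.8 ± 3.31 CPM (SD, n = 3). Its log2 fold change was 0.49 ± 0.10 (SE; edgeR adjusted p = 0.0014). SLC39A13, which acts on zinc in the secretory pathway, fell from 212 ± 12.1 to 174 ± 0.61 CPM (-0.28 ± 0.07, edgeR adjusted p = 0.0030). SLC39A14, an importer of zinc, iron and manganese that is prominent in liver, fell from 833 ± 29.1 to 735 ± 34.8 CPM (-0.18 ± 0.06, edgeR adjusted p = 0.015). The SLC39A14 call did not hold with DESeq2 size factors, with DESeq2, or without GABA replicate 2 or 3, where the largest adjusted p was 0.075. Over all tested genes, 47.6% were called higher and 51.2% lower, so any listed gene was likely to be called.

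Of 10 ZnT exporters 2 are listed. SLC30A2, which loads zinc into vesicles, rose from 1.59 ± 0.50 to 4.26 ± 1.11 CPM (log2 fold change 1.41 ± 0.32, edgeR adjusted p = 0.0025), on counts of 8 to 46 per library. SLC30A7, a Golgi zinc transporter, had 178 ± 23.7 CPM in control and 155 ± 8.69 with GABA and did not pass (-0.19 ± 0.09, edgeR adjusted p = 0.057). Across the alternatives it passed in 2, the replicate block and without control replicate 2, and missed the threshold in the other 13; without control replicate 3 its log2 fold change was -0.08 (edgeR adjusted p = 0.19). SLC30A1, the exporter that MTF1 induces, and MTF1 itself are unlisted and were not analysed. Among all tested genes, 51.2% were called lower and 47.6% higher, so nothing is read from the next count. Of 11 genes in the list of MTF1 and its reported targets outside the metallothioneins, 4 were tested. SLC39A10, a member chosen by this contrast, was higher and 3 were lower. The 3 were GCLC, the catalytic subunit of glutathione synthesis (-0.40 ± 0.09), NDRG1, a stress-responsive gene (-0.35 ± 0.09), and SLC40A1, the iron exporter ferroportin (-0.79 ± 0.24, at 6.48 and 3.76 CPM, not passing without control replicate 1).

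Metallothioneins also bind copper, and some ZIP proteins carry iron or manganese, so genes for these metals were counted. Of 22 copper genes 8 were tested: 5 fell, 3 rose, and their median was -0.28 on the log2 scale against -0.18 over all tested genes. Of all tested genes 51.2% were called lower and 47.6% higher. SLC31A1, the copper importer CTR1, fell from 163 ± 12.7 to 123 ± 3.57 CPM (-0.41 ± 0.08, edgeR adjusted p = 8.3e-04), and STEAP3, a metalloreductase, from 155 ± 13.0 to 116 ± 6.35. SOD1, the copper and zinc superoxide dismutase, fell by 0.28 on the log2 scale. LOX, a copper-dependent collagen cross-linking enzyme, rose from 1054 ± 66.6 to 1470 ± 55.7 CPM (0.48 ± 0.06, edgeR adjusted p = 1.0e-04).

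Of 30 iron genes 10 were tested: 8 fell, 2 rose, and the median log2 difference was -0.38. The median of all tested genes was -0.18, with 51.2% called lower and 47.6% higher. CYBRD1, a ferric reductase, fell from 249 ± 16.7 to 146 ± 3.57 CPM (-0.77 ± 0.07, edgeR adjusted p = 8.2e-06). FTL, the ferritin light chain, fell from 7876 ± 229 to 5828 ± 169 CPM (-0.43 ± 0.06, edgeR adjusted p = 1.2e-04). FLVCR1, a heme exporter, and SLC25A37, the mitochondrial iron importer mitoferrin, had -0.60 ± 0.10 and -0.37 ± 0.07. The 2 that rose, named after their values were seen, were TFRC, the transferrin receptor (0.31 ± 0.07), and HMOX1, heme oxygenase (0.50 ± 0.12). Without control replicate 3 the log2 fold changes of TFRC and HMOX1 were 0.33 and 0.34. The direction counts of the copper and iron lists were the same without control replicate 3. In a short list of genes tied to manganese, magnesium and calcium transport, 2 of 3 tested genes rose, ATP13A1 (0.31 ± 0.06) and MCOLN1 (0.35 ± 0.12). The third, SLC11A2, the divalent metal transporter DMT1, fell (-0.29 ± 0.09) and is also counted among the iron genes. The MCOLN1 call did not hold without GABA replicate 1 (edgeR adjusted p = 0.070), nor the SLC11A2 call without GABA replicate 2 (edgeR adjusted p = 0.059).

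**Figure D5:**
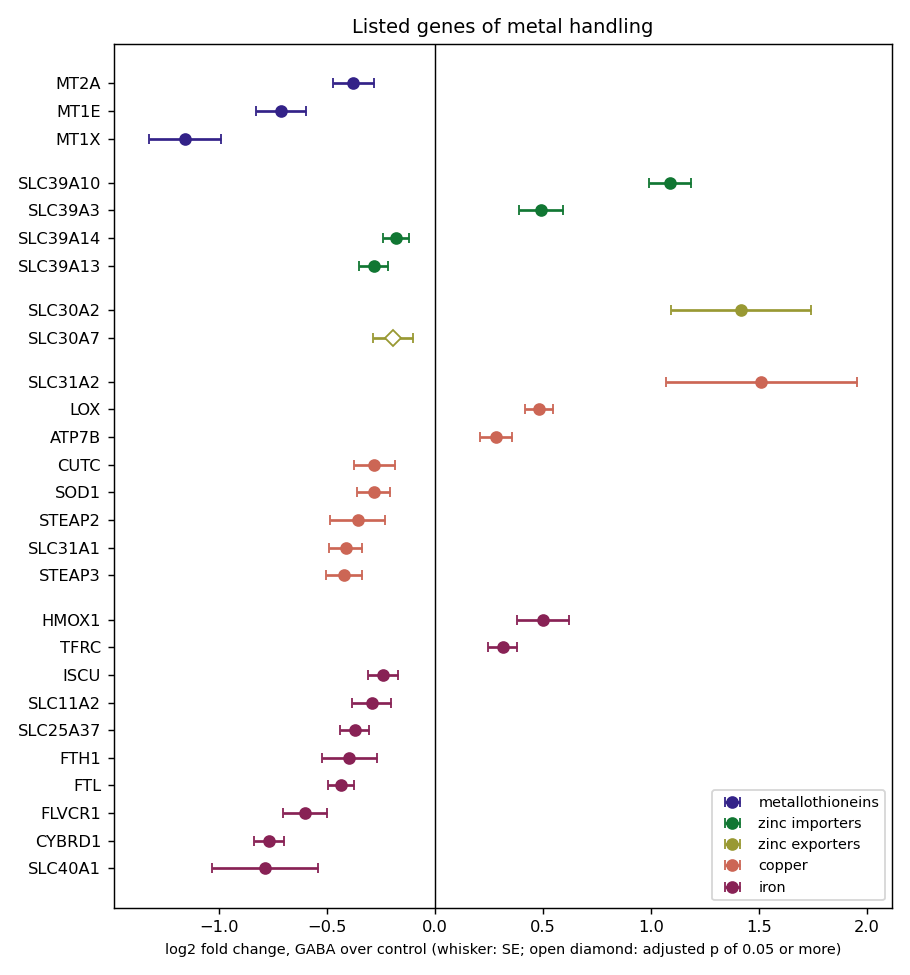
Fold changes of listed metal-handling genes. The x axis is the log2 fold change of GABA over control with its SE, rows are genes grouped by list, filled circles passed an adjusted p of 0.05 and the open diamond (SLC30A7) did not. The 3 metallothioneins run from -1.16 to -0.38, and SLC39A10 is at 1.09 among the zinc importers.

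Genes of other inputs to metallothionein transcription were counted as well. Their counts stand beside 51.2% of all tested genes called lower and 47.6% called higher, with a median of -0.18. Among 15 tested genes for glutathione and thiol redox, 14 fell and 1 rose (median -0.28), among them GSR, glutathione reductase, from 180 ± 11.0 to 110 ± 2.74 CPM, and GLRX2, a mitochondrial glutaredoxin, from 120 ± 7.64 to 90.7 ± 0.13. The exception, GSS, glutathione synthetase, rose by 0.23 ± 0.07 and was named after its value was seen. With DESeq2, 10 genes of this list passed, 9 lower and 1 higher. Of 8 tested glucocorticoid targets 4 rose and 4 fell (median 0.04). Without control replicate 3, 3 passed as higher and 4 as lower. The gene lost was GADD45A (edgeR adjusted p = 0.36), named after its value was seen. With any 1 GABA library left out, 6 genes of this list passed. SGK1, a kinase, and PER1, a clock gene, rose by 0.94 ± 0.06 and 0.39 ± 0.10, whereas CEBPD, a transcription factor, had -0.89 ± 0.22.

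Among 6 tested genes for IL-6, STAT3 and the acute phase, 5 fell and 1 rose (median -0.29). Over all tested genes 51.2% were called lower and 47.6% higher, with a median of -0.18. IL6R, the interleukin-6 receptor, fell from 30.4 ± 0.74 to 16.6 ± 1.83 CPM (-0.87 ± 0.12, edgeR adjusted p = 1.7e-04). JAK1, a kinase of the IL-6 pathway, had -0.30 ± 0.06, and STAT3 itself rose by 0.18 ± 0.06. Without GABA replicate 3, 3 genes of this list passed. Among 5 tested heat shock and metal stress genes, 3 fell, 1 rose and 1 did not pass (median -0.18); DNAJB1, an HSP40 co-chaperone, rose by 0.23 ± 0.06 and HSPD1, a mitochondrial chaperonin, had -0.19 ± 0.07 and missed the threshold in 5 of 15 alternatives. The heat shock count depends on the setting, with 1 gene passing under DESeq2 or without control replicate 1 and 2 passing with DESeq2 size factors or without GABA replicate 1 or 2. Of 4 tested kinases, phosphatases and partners tied to zinc signalling through ZIP6 and ZIP10, 2 rose, PTPN1 (0.28 ± 0.06) and STAT3, and 2 fell, CSNK2A2, a catalytic subunit of casein kinase 2 (-0.33 ± 0.07), and PTPN11 (-0.13 ± 0.05), the last not passing in 9 of 15 alternatives.

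Genes whose pattern was most like each member were ranked by Pearson correlation of log2 CPM over the 6 libraries, among genes averaging 50 CPM or more. The libraries form 2 groups and share control replicate 3, and 398 to 763 of about 3069 genes had r above 0.9 with a given member, so the ranking is a description only. MT2A was most like DESI2 (r = 0.998), BTF3L4 (0.998) and ZDHHC2 (0.997), all lower with GABA and highest in control replicate 3. DESI2, for instance, was at 246, 234 and 295 CPM in control replicates 1, 2 and 3, and at 212, 211 and 205 in GABA replicates 1, 2 and 3. MT1E was most like UAP1 (0.998), WDR41 (0.998) and SMNDC1 (0.997), although UAP1 differed far less between the groups, with a log2 fold change of -0.13 ± 0.06.

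MT1X was most like RFTN1 (r = 0.999), IQSEC1 (0.997) and COPS5 (0.994), which were lowest among the controls in replicate 3. RFTN1 was at 158, 153 and 135 CPM in control replicates 1, 2 and 3 and at 113, 117 and 116 in GABA replicates 1, 2 and 3. SLC39A10 was most like RASSF3 (1.000 when rounded), CEP170 (0.999) and CRLF3 (0.999), which were higher with GABA and, among the controls, highest in replicate 3. CEP170, a centrosomal protein, went from 275 ± 13.8 to 368 ± 5.15 CPM (SD, n = 3), a log2 fold change of 0.42 ± 0.06 against 1.09 ± 0.10 for SLC39A10.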

How the data were processed

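RNA-seq gene counts of 6 libraries were used. The deposited values are raw counts per gene, 1 file per library; CASAVA 1.8 and Bowtie 0.12.2 with hg38 were used, per the submitters' processing notes, and the counting program, strand setting and choice of listed genes are not given in the sources used here. Of 5187 identifiers, 5173 took their symbol from a table of gene names and 14 from GENCODE release 29. The fit used edgeR 4.0.16 (R 4.3.3): filterByExpr (minimum count 10, minimum total 15), TMM, a robust quasi-likelihood fit and F test over 4981 genes, Benjamini-Hochberg adjustment, threshold 0.05. Fold changes are GABA over control. The fit was tested on simulated data in which 4768 of 4968 tested genes were unchanged. It called 6 of these, 91 of 100 genes changed by 0.5 on the log2 scale, and 100 of 100 changed by 1. The simulated libraries varied less than the real ones, and the real list holds few unchanged genes. The simulation therefore does not show how the calls behave on this list.

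Members and the 12 lists of metal, redox and signalling genes were chosen with earlier results of these data known. The rule named the members, up to 4 genes per list by p, 3 genes most like each member and listed neighbours; some are left out of the text. Promoters came from RefSeq, transcripts from GENCODE. Alternatives were DESeq2 1.42.0 and its size factors, limma-voom (limma 3.58.1), upper quartile, library-size and non-mitochondrial scaling, other filters, the replicate block and each library left out. Other steps ran in Python 3.11.15 (pandas 2.3.3).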

Additional observations from a re-analysis of the deposited data

How the results depend on the processing

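Over the 15 alternatives the 4 members kept their direction. The log2 fold change ran from -0.46 to -0.23 for MT2A, -0.81 to -0.54 for MT1E, -1.32 to -1.03 for MT1X and 1.02 to 1.20 for SLC39A10, and each range was set by leaving out a control library. Because the members were chosen by this contrast, this is no sign of stability. Of the 61 other list genes past the threshold, 40 passed in every alternative that tested them and 21 missed it in at least 1, with no change of sign. Counts of genes called higher ran from 2351 to 2488 across scalings, filters and tools (2081 to 2336 with a library left out) against 2369, and of genes called lower from 1953 to 2643 (1937 to 2399) against 2549. The replicate block gave -0.37, -0.70, -1.14 and 1.09 for MT2A, MT1E, MT1X and SLC39A10, with 4823 genes called against 4918, and let SLC30A7 pass; same-numbered libraries did not deviate together (correlations 0.0003, -0.089 and -0.036), so the labels' numbers were not taken as pairs. Among the 4 members MT1X, at 95 to 284 counts, has the largest counting error. The depth of the libraries is unknown, as unlisted genes were not analysed.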

Other observations

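Control replicate 3 was compared with the other controls after its values had been seen. Over the 3070 genes averaging 50 CPM or more it was the control farthest from the GABA mean in 59.1% and the nearest in 27.8%. Among the 67 tested genes of the 12 lists the shares were 49.3% and 31.3%.

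FTH1 and SRXN1, chosen after their values were seen, were low in that library, as MT1X was. FTH1, the ferritin heavy chain, was at 2489, 2649 and 1666 CPM in control replicates 1, 2 and 3 and at 1744, 1694 and 1729 in GABA replicates 1, 2 and 3. SRXN1, sulfiredoxin and an NRF2 target, was at 26.6, 36.8 and 12.1 CPM in controls and at 14.9, 13.3 and 14.0 with GABA. For both genes control replicate 3 lay below all GABA libraries. Their log2 fold changes were -0.40 ± 0.13 and -0.83 ± 0.29 (SE), and -0.58 and -1.17 without control replicate 3. Across the alternatives SRXN1 ranged from -1.17 to -0.46 and missed the threshold in 5 of 15 (DESeq2, limma-voom, and without control replicate 2 or GABA replicate 2 or 3; largest adjusted p 0.088), while FTH1 passed in all 15. FTL, the ferritin light chain, did not share this: control replicate 3 was at 8109 CPM, beside 7867 and 7651 in the other controls.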
